A study of Mus musculus with 24 samples.

Results

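The matrix metalloproteinases (MMPs) and their tissue inhibitors (TIMPs) were followed in mouse bone marrow-derived macrophages as 10 genes, 7 proteinases and 3 inhibitors. The genes were Mmp2, Mmp8, Mmp9, Mmp12, Mmp13, Mmp14, Mmp19, Timp1, Timp2 and Timp3. All probe sets whose only gene symbol in the platform annotation was one of these names were used, which gave 23 of the 45037 probe sets tested. The marrow donors were 3 wild-type mice (WT) and 3 mice without STAT6 (KO, STAT6 KO in the labels), all labelled C57Bl/6, and the cells were cultured for 10 days in 20 ng/ml M-CSF. Per mouse there were 4 cultures, with no further cytokine (control) or with 20 ng/ml IL-4, and either vehicle (DMSO:ethanol) or 1 µM rosiglitazone (RSG), so that 24 arrays formed 8 groups of 3. Age and sex of the mice were not given in the sources used here. STAT6 is the transcription factor activated by the IL-4 receptor, and RSG is a drug that binds and activates PPARγ, a nuclear receptor. The design asks how IL-4 and STAT6 bear on the response to a PPARγ ligand. The deletion is present throughout life in every cell, so that differentiation itself took place without STAT6 in the KO cultures.

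MMPs are zinc-dependent endopeptidases that cut collagens, elastin and other extracellular proteins, and most are secreted as inactive proenzymes. TIMPs block the active site of the enzymes, and TIMP2 also takes part in the activation of pro-MMP2 at the cell surface together with MMP14. Macrophages use these enzymes in migration, tissue repair and matrix turnover, and MMP12 is known as macrophage metalloelastase.

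Mmp13 and Mmp12 are neighbours on chromosome 9, and the 250 bases before their RefSeq starts are shown because both genes rose with IL-4 in WT cells, as described below. The sequences are from the plus strand of GRCm38.p6, 5′ to 3′, with capitals for the AP-1 element (TGAGTCA, searched on both strands) and the TATA box (TATAAA). Mmp12 has 2 listed starts.
Mmp13, chr9:7272264-7272513: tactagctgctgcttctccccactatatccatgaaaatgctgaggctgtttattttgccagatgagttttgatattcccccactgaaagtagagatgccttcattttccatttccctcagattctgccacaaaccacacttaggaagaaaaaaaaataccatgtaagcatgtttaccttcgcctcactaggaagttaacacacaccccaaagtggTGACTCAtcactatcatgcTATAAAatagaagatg
Mmp12, first start, chr9:7344147-7344396: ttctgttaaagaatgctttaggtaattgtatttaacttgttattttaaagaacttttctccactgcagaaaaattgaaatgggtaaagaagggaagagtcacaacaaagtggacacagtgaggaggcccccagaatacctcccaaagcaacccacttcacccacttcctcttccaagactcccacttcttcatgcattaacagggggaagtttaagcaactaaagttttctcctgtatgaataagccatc
Mmp12, second start, chr9:7347124-7347373: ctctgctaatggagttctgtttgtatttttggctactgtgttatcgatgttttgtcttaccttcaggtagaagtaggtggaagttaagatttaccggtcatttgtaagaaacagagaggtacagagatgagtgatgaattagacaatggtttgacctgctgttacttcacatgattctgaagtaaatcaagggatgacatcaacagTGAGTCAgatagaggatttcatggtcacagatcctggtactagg
The Mmp13 window held an AP-1 element 35 bases and a TATA box 16 bases before the start, and the window of the second Mmp12 start held an AP-1 element 44 bases before it. An AP-1 element was found in 4.46% and a TATA box in 12.4% of 32851 windows of this length. None of the 8 windows of the 7 members with a sequence held the STAT6 motif, TTC and GAA with 4 bases between them, which 5.85% of all windows held. They also held no TTC and GAA with 3 bases between them (7.02% of all) and no AGGTCA repeat with 1 base between its copies, the PPARγ motif (0.0335% of all), on either strand. No promoter of Mmp2, Mmp9 or Mmp19 was used here.

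Values are log2 of the ratio to the median of the same probe set over the arrays, so that they compare samples and hold no absolute level. A change is the difference of 2 group means of 3 arrays with the SE of limma's fit, and its p is adjusted over all probe sets. Calls required a change of 1.5-fold or more in addition to an adjusted p under 0.05. For Stat6 the 12 WT arrays held 0.71 to 1.14 and the 12 KO arrays -2.12 to -1.48, so that every array matched its genotype label. This does not check the IL-4 and RSG labels. The mean of 9 macrophage markers was -0.74 to -0.37 in WT IL-4 cultures and -0.32 to 0.36 elsewhere. With IL-4 and vehicle 1 of the 9 rose and 2 fell in each genotype. On ratios such means do not show that the cells were macrophages. The mean of 13 stromal fibroblast markers was 1.81 for mouse 2 in WT control vehicle and 3.88 for mouse 6 in KO control RSG, and at most 0.85 elsewhere. In WT control vehicle, mouse 3 carried alternative activation markers at a mean of 1.33, against -1.91 and -1.71 for mice 1 and 2 of that group. KO IL-4 cultures carried markers of other cells, with means of 4.79 to 5.67 for mast cells and basophils, 2.76 to 3.90 for lymphocytes and 3.17 to 3.49 for neutrophils, whereas neutrophil markers lay between -4.45 and -3.49 in WT IL-4 cultures. The mean of 9 osteoclast markers, Ctsk among them, was 1.94 to 2.58 in WT IL-4 cultures, where Mmp13, Mmp12 and Mmp19 rose. It was at most 0.53 elsewhere, and 6 of the 9 rose with IL-4 in WT vehicle cultures. In KO vehicle cultures, where Mmp13 also rose with IL-4, this mean was -0.82 to -0.31 without IL-4 and -0.23 to 0.22 with it. The part of these cells in the results was not tested, and in bulk cultures fewer cells of a type and less RNA per cell cannot be told apart. The median change of all probe sets was -0.25 between KO and WT with IL-4 and vehicle and at most 0.09 in size for IL-4 in WT.

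IL-4 raised 6 and lowered 4 of the 23 probe sets in WT vehicle cultures, where 7.01% of all probe sets rose and 5.94% fell. The risen genes were Mmp13, Mmp12, Mmp19 and Timp2, and the fallen ones Mmp14 and Mmp2. In KO vehicle cultures 6 rose (4.25% of all probe sets) and 5 fell (7.26%), namely Mmp13, Mmp8, Mmp9 and Mmp14 upward and Timp2 and Mmp2 downward. With RSG present 6 rose and 4 fell in WT (7.87% and 5.59% of all) and 4 rose and 6 fell in KO (3.19% and 3.64% of all). By 1 probe set a gene, 4 of 10 genes rose and 1 fell in WT vehicle cultures (7.56% and 6.48% of all genes). In KO vehicle cultures 3 rose and 1 fell (5.18% and 8.18%). The median change of the 23 probe sets was 0.50 in WT and 0.41 in KO with vehicle, against 0.09 and -0.14 over all probe sets. The values by array and the IL-4 responses of all 23 probe sets are plotted next.

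**Figure D1:**
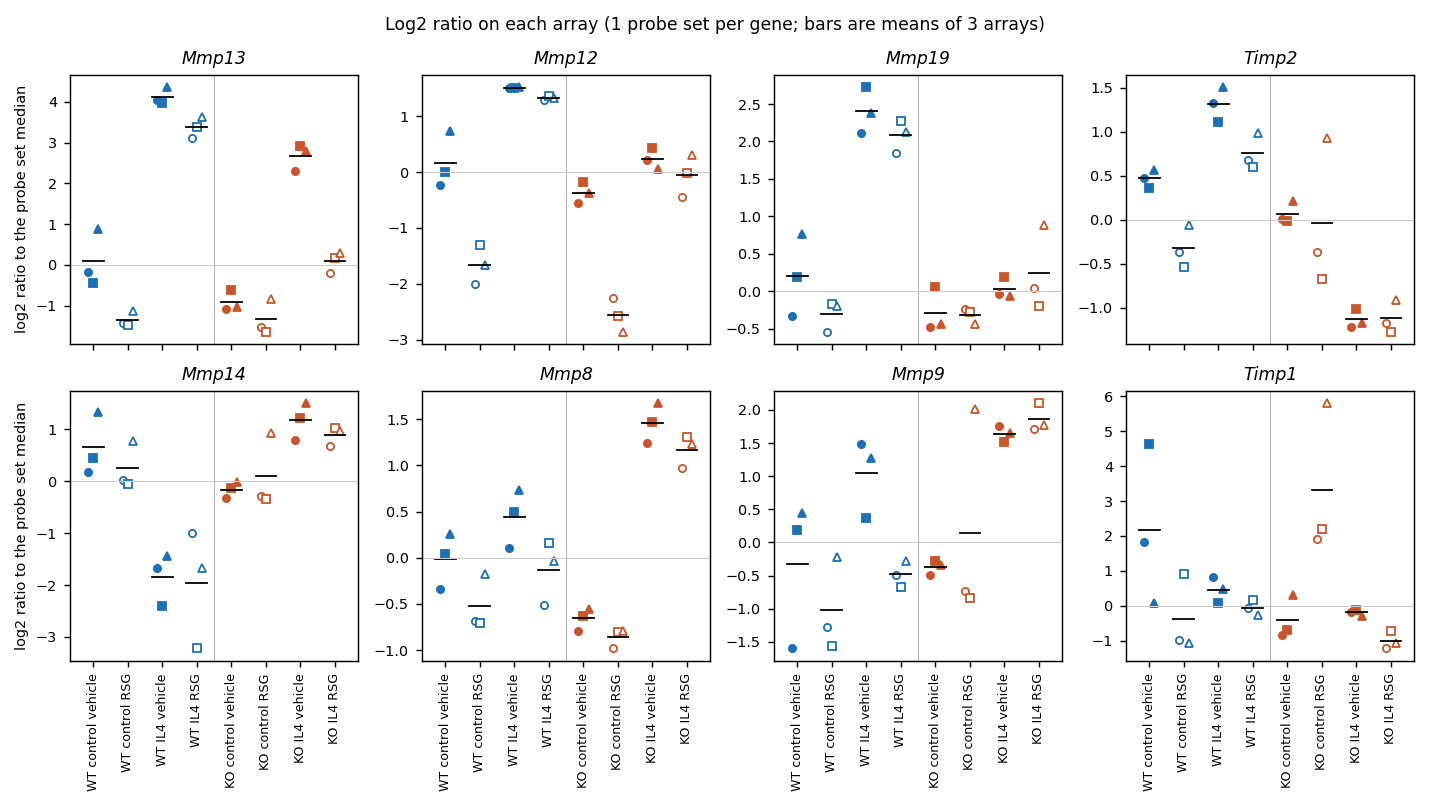
Log2 ratio (y axis) of 1 probe set per gene on each of the 24 arrays, by group (x axis). Blue is WT, orange is KO, open symbols are RSG, circles, squares and triangles are mice 1, 2 and 3 in WT and mice 4, 5 and 6 in KO, and bars are means of 3 arrays. Mmp13 was high on the IL-4 arrays of both genotypes except KO with RSG, whereas Mmp19 and Timp2 were high in WT only.

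**Figure D2:**
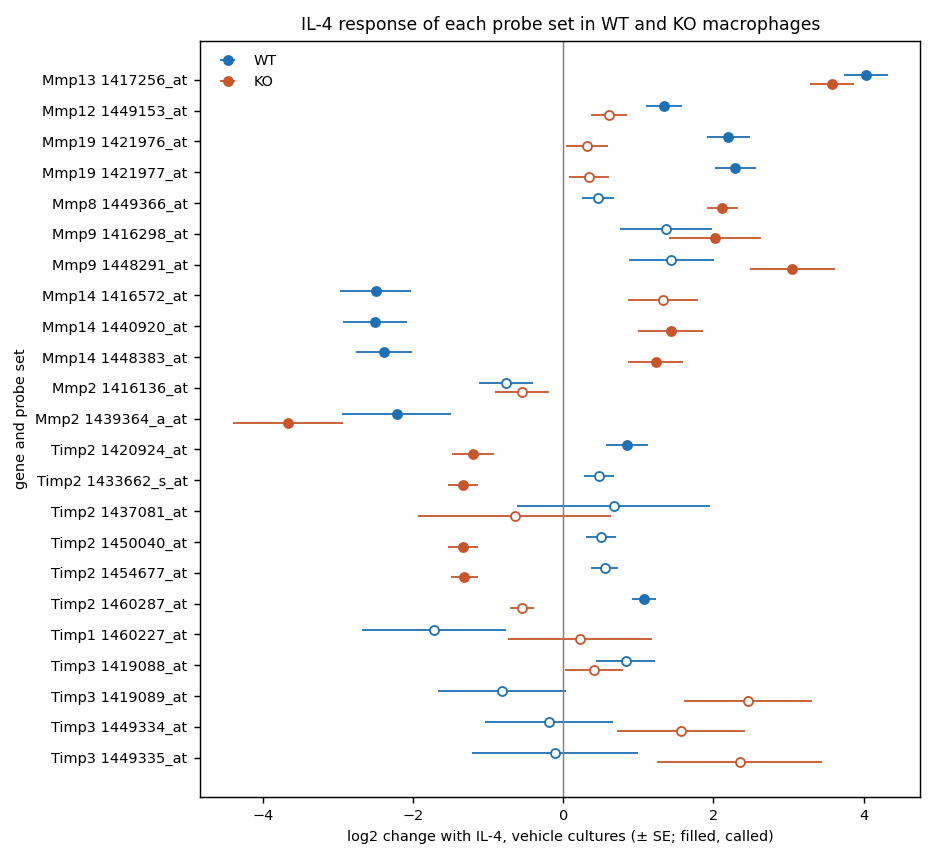
Log2 change with IL-4 in vehicle cultures (x axis) of each of the 23 probe sets (y axis), as the limma estimate ± SE with 3 arrays per group; blue is WT, orange is KO, and filled points were called. Mmp14 and Timp2 lie on opposite sides of 0 in the genotypes, and the Mmp13 points lie close together.

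Mmp13, a collagenase, had the largest increase with IL-4 among the members in vehicle cultures of both genotypes. In WT the control vehicle arrays held -0.18, -0.44 and 0.89 and the IL-4 vehicle arrays 4.04, 3.96 and 4.37. In KO the control vehicle arrays held -1.08, -0.62 and -1.03 and the IL-4 vehicle arrays 2.31, 2.91 and 2.79. The groups did not overlap in either genotype, and the control array of mouse 3 was the highest of the WT controls. Mmp13 rose by 4.03 ± 0.29 in WT (16.4-fold, adjusted p = 2.8e-08) and by 3.58 ± 0.29 in KO (11.9-fold, adjusted p = 3.3e-07). The genotype difference of this response, 0.46 ± 0.42, was not called (adjusted p = 0.553), with an interval of -0.42 to 1.33. With RSG the IL-4 arrays held 3.12, 3.39 and 3.63 in WT but -0.20, 0.16 and 0.30 in KO. The KO values with IL-4 and RSG were thus within the range of WT control vehicle arrays. Under RSG the IL-4 response was 4.73 ± 0.29 in WT (adjusted p = 3.7e-09) and 1.42 ± 0.29 in KO (adjusted p = 0.00491), where Mmp12, Mmp8 and the second Mmp9 probe set rose more. The genotype difference under RSG, 3.30 ± 0.42, was called (adjusted p = 4.1e-05). Of the 23 probe sets 11 were called for a genotype difference in the IL-4 response with vehicle (14.6% of all) and 13 with RSG (11.2% of all). The KO response under RSG lost its call without mouse 5, by the methods' t-test and when limma was fitted to the compared groups alone (adjusted p from 7.7e-04 to 0.135 over 15 alternatives).

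Mmp12, macrophage metalloelastase, rose with IL-4 in WT. The WT control vehicle arrays held -0.23, 0.01 and 0.73 and the IL-4 vehicle arrays 1.51, 1.51 and 1.53. The IL-4 arrays had an SD of 0.01 and did not overlap with the controls. The increase was 1.34 ± 0.24 (2.54-fold, adjusted p = 5.4e-04), a call lost by the methods' t-test and with the compared groups alone (8.4e-05 to 0.0797 over 15 alternatives). In KO the values went from -0.56, -0.17 and -0.37 to 0.21, 0.44 and 0.06. This change of 0.61 ± 0.24 was not called (adjusted p = 0.103), except by quantile normalization and with centred arrays (0.0398 to 0.312 over 15 alternatives). The genotype difference of 0.74 ± 0.34 was not called (adjusted p = 0.167, interval 0.03 to 1.45). Without mouse 3 in WT control vehicle that difference was 1.02 and was called (adjusted p from 0.0354 to 0.587 over 15 alternatives). In the presence of RSG, Mmp12 rose with IL-4 in both genotypes, by 2.99 ± 0.24 in WT (adjusted p = 6.7e-08) and by 2.51 ± 0.24 in KO (adjusted p = 3.9e-06). That KO call was lost by the methods' t-test (adjusted p = 0.0522). By group mean the order was WT IL-4 vehicle (1.52), WT IL-4 RSG (1.33), KO IL-4 vehicle (0.24), WT control vehicle (0.17), KO IL-4 RSG (-0.05), KO control vehicle (-0.37), WT control RSG (-1.66) and KO control RSG (-2.57). The third to sixth overlapped with their neighbours in this order, and the other neighbours did not overlap.

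Mmp19, a basement membrane-degrading enzyme, rose with IL-4 in WT, and this response differed between the genotypes. The WT arrays went from -0.33, 0.19 and 0.76 to 2.11, 2.73 and 2.38. The KO arrays held -0.48, 0.06 and -0.44 without and -0.04, 0.19 and -0.06 with IL-4, and these groups overlapped. Mmp19 rose by 2.20 ± 0.28 in WT (4.58-fold, adjusted p = 1.7e-05), and the change in KO was 0.32 ± 0.28 (adjusted p = 0.541). The difference between the genotypes was 1.88 ± 0.39 (adjusted p = 0.00266). The other probe set of Mmp19 gave 2.29 in WT, 0.34 in KO and a difference of 1.94. With RSG the responses were 2.39 ± 0.28 in WT and 0.56 ± 0.28 in KO, and the difference of 1.83 ± 0.39 was called. The 6 groups without WT IL-4 followed each other with overlapping arrays in the order of levels, and the 2 WT IL-4 groups lay above them.

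Mmp14, the membrane-bound enzyme that activates pro-MMP2, moved in opposite directions. The WT vehicle arrays went from 0.17, 0.45 and 1.34 to -1.67, -2.40 and -1.45 with IL-4. The KO vehicle arrays went from -0.33, -0.13 and -0.02 to 0.79, 1.22 and 1.5. No control array overlapped with the IL-4 arrays of its genotype. Mmp14 fell by 2.50 ± 0.47 in WT (5.64-fold, adjusted p = 9.8e-04), and the other 2 probe sets fell by 2.51 and 2.39. The methods' t-test did not call the first 2 of these 3 (adjusted p = 0.0586 and 0.0673, the highest of their 15 alternatives). In KO the same probe set changed by 1.33 ± 0.47 (adjusted p = 0.0678, and 0.0255 with the replicate block, over a range of 0.0255 to 0.261), and the other 2 rose by 1.43 ± 0.43 and 1.23 ± 0.37 (adjusted p = 0.0289 and 0.0294). The calls in KO were lost by quantile normalization and without mouse 4, 5 or 6 on both of those probe sets. The genotype difference was -3.83 ± 0.67, -3.94 ± 0.60 and -3.62 ± 0.52 on the 3 probe sets and was called on each.

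Mmp2, gelatinase A, gave values that depended on the probe set. The first probe set held 0.25, 0.09 and 0.16 in WT control vehicle and -0.08, -0.90 and -0.81 with IL-4, a change of -0.76 ± 0.36 that was not called (adjusted p = 0.172). In KO it changed by -0.55 ± 0.36 (adjusted p = 0.371). The second probe set fell by 2.22 ± 0.73 in WT (adjusted p = 0.0449) and by 3.67 ± 0.73 in KO (adjusted p = 0.00181). On this probe set the WT vehicle arrays went from 0.85, 0.84 and 0.02 to -1.59, -0.17 and -3.18, and the KO arrays from 1.24, 1.47 and 1.54 to -0.97, -2.55 and -3.25. The spread within the IL-4 groups was wide, and the WT call was lost under 11 of 15 alternatives, among them each omission of a mouse and the replicate block (adjusted p from 0.0350 to 0.256). The KO call was lost by the methods' t-test (adjusted p = 0.058). With RSG the first probe set was called as fallen with IL-4 in KO, a call lost with each omission of a mouse. Without the 2 arrays with high stromal markers that change was -0.63 ± 0.29 and was not called (adjusted p = 0.227).

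Mmp8, neutrophil collagenase, rose with IL-4 in KO. The KO vehicle arrays went from -0.79, -0.63 and -0.55 to 1.24, 1.47 and 1.67, with no overlap. The WT vehicle arrays held -0.34, 0.04 and 0.26 without and 0.11, 0.49 and 0.73 with IL-4, and overlapped. The increase in KO was 2.12 ± 0.21 (4.35-fold, adjusted p = 2.2e-06), and the change in WT was 0.46 ± 0.21 (adjusted p = 0.164). The genotype difference was -1.67 ± 0.30 with vehicle (adjusted p = 7.4e-04) and -1.64 ± 0.30 with RSG (adjusted p = 0.00123). Neutrophil markers moved the same way in KO, where 10 of 10 measured genes rose with IL-4. Among them Mpo rose by 5.51 ± 0.53 and Prtn3 by 5.88 ± 0.74. In WT 8 of 10 fell, whereas Mmp8 was not called and was higher with IL-4 in 3 of 3 mice, by 0.45 to 0.47. The part of neutrophils in the Mmp8 values was not tested.

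Mmp9, gelatinase B, rose with IL-4 in KO as well. The KO vehicle arrays went from -0.49, -0.28 and -0.34 to 1.76, 1.52 and 1.65, an increase of 2.02 ± 0.61 (4.05-fold, adjusted p = 0.0318). The second probe set rose by 3.05 ± 0.57 (adjusted p = 0.00116). In WT the control vehicle arrays spread from -1.60 to 0.44 and overlapped with the IL-4 arrays at 1.49, 0.37 and 1.28, and the change of 1.37 ± 0.61 was not called (adjusted p = 0.149). Without the 2 arrays with high stromal markers it was 1.63 and was called. The call in KO on the first probe set was lost without mouse 2, 4 or 5 (adjusted p from 0.00376 to 0.171 over 15 alternatives). The genotype difference with vehicle, -0.64 ± 0.87, was not called (adjusted p = 0.710). With RSG only the second probe set was called for IL-4 in KO, at 2.24. That call was lost without mouse 4 or 5, by the methods' t-test and with the compared groups alone. The KO control RSG array of mouse 6, which carried the highest stromal markers, held 2.01, against -0.73 and -0.84 for mice 4 and 5.

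**Figure D3:**
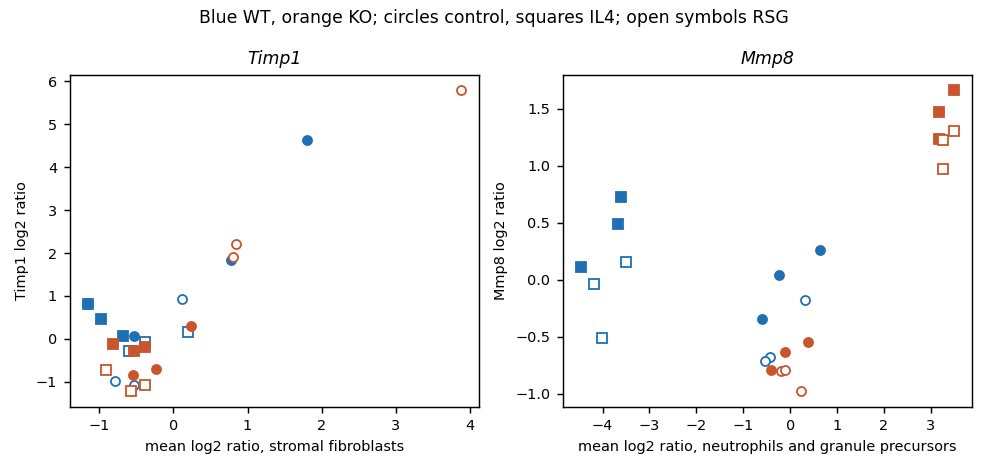
Log2 ratio of Timp1 and of Mmp8 (y axes) against the mean log2 ratio of 13 stromal fibroblast markers and of 10 neutrophil markers (x axes) on the 24 arrays. Blue is WT, orange is KO, circles are control, squares are IL-4 and open symbols are RSG. The 2 arrays with the highest stromal means carry the highest Timp1 values, 4.63 and 5.80, and the 6 KO IL-4 arrays carry the highest Mmp8 values and neutrophil means.

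Among the inhibitors, Timp2 had 6 probe sets. The first held 0.48, 0.36 and 0.57 in WT control vehicle and 1.33, 1.11 and 1.51 with IL-4. In KO it held 0.01, -0.01 and 0.21 in control and -1.21, -1.01 and -1.17 with IL-4. IL-4 arrays lay above the controls in WT and below them in KO. Timp2 rose by 0.85 ± 0.28 in WT (1.80-fold, adjusted p = 0.0445) and fell by 1.20 ± 0.28 in KO (2.30-fold, adjusted p = 0.00579). In WT only 2 of the 6 probe sets were called, this one and another that rose by 1.08 ± 0.16 (adjusted p = 7.5e-05), and the first lost its call without mouse 1, 2, 3 or 4 and under 7 of 15 alternatives in all (adjusted p from 0.00240 to 0.209). In KO 4 of 6 probe sets fell, by 1.20 to 1.33, and the first lost its call without mouse 4 (limma, adjusted p = 0.0586). The probe set that rose by 1.08 in WT changed by -0.55 ± 0.16 in KO, less than 1.5-fold. The genotype difference was 2.05 ± 0.39 on the first probe set (adjusted p = 0.00141) and was called on 5 of 6, at 1.62 to 2.05. The remaining probe set was noisy, with values from -2.98 to 1.72, and was called in no comparison.

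Timp1 was uneven between mice. The WT control vehicle arrays held 1.83, 4.63 and 0.07 and the IL-4 arrays 0.82, 0.07 and 0.47. The change with IL-4 in WT was -1.72 ± 0.96 (adjusted p = 0.268), and in KO vehicle it was 0.22 ± 0.96 (adjusted p = 0.931). In KO control RSG cultures the arrays held 1.91, 2.20 and 5.80, all above the KO control vehicle arrays at -0.83, -0.69 and 0.30. With RSG, Timp1 fell by 4.31 ± 0.96 with IL-4 in KO (19.8-fold, adjusted p = 0.00798). That call was lost without mouse 5 or 6, by the methods' t-test and with the compared groups alone (adjusted p from 0.00202 to 0.225 over 15 alternatives). It was kept, at -3.06 ± 0.55, without the 2 arrays with high stromal markers. The KO control RSG arrays that remained then, of mice 4 and 5, held stromal means of 0.80 and 0.85. The KO IL-4 RSG arrays held -0.91 to -0.38, so that this omission left a stromal difference between the groups. The 2 arrays left out carried the 2 highest Timp1 values, and the part of stromal cells was not tested.

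Timp3, an inhibitor that binds to the matrix, had 4 probe sets that disagreed. The first held -1.57, -0.42 and -0.08 in WT control vehicle and -0.58, 0.32 and 0.66 with IL-4, and was called in no comparison. The second held -0.53, -1.30 and -0.11 in KO control vehicle and 1.54, 1.62 and 2.27 with IL-4, without overlap. Its change of 2.46 ± 0.85 was not called (adjusted p = 0.0603) but was under 4 of 15 alternatives (0.00105 to 0.301). All but the first held 0.65 to 2.57 in KO IL-4 vehicle cultures and -3.42 to 0.55 in WT IL-4 vehicle cultures. KO was above WT with IL-4 and vehicle by 2.71 ± 0.85 and 2.39 ± 0.85 on 2 of them (adjusted p = 0.0204 and 0.0414), and the remaining one was not called at 2.79 ± 1.10 (adjusted p = 0.0668, and 0.0184 to 0.199 over 15 alternatives, 3 of which called it). With RSG that probe set was called at 3.68 ± 1.10 (adjusted p = 0.0186), a call lost under 6 of 15 alternatives (0.00624 to 0.135). Both calls with vehicle were lost without mouse 4 or 5, by the methods' t-test (adjusted p = 0.244 and 0.146) and with the compared groups alone. The call at 2.71 was also lost without mouse 6. The call at 2.39 was also lost without mouse 1, 2 or 3 and by quantile normalization.

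KO and WT were also compared directly in each condition. Without IL-4, 0 of the 23 probe sets were called with vehicle and 0 with RSG, against 0.109% and 0.0999% of all probe sets. At an unadjusted p under 0.05 limma gave 5 and 6, and the methods' t-test called 0 in both. With IL-4 and vehicle 6 were higher in KO (6.94% of all) and 9 lower (17.3% of all), and with IL-4 and RSG 8 were higher (5.79%) and 9 lower (14.2%). Mmp14 was higher in KO by 3.01 ± 0.47 (adjusted p = 7.5e-05) and Mmp8 by 1.02 ± 0.21 (adjusted p = 9.9e-04) with IL-4 and vehicle. Lower in KO were Mmp19 by -2.37 ± 0.28 (adjusted p = 3.2e-06), Timp2 by -2.45 ± 0.28 (adjusted p = 2.4e-06), Mmp13 by -1.45 ± 0.29 (adjusted p = 8.9e-04) and Mmp12 by -1.28 ± 0.24 (adjusted p = 4.1e-04). With RSG added, the Mmp13 difference was -3.29 ± 0.29 (adjusted p = 2.4e-07), and Mmp9 was higher in KO by 2.35 ± 0.61 (adjusted p = 0.00752). These differences exceed the shift of all probe sets, and the calls for Mmp12, Mmp13, Mmp8, Mmp19 and Timp2 were kept under all 15 alternatives.

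RSG gave few calls among the members. The median change of the 23 probe sets was -0.51 in WT control and -0.48 in WT IL-4 cultures (-0.03 over all in both). In KO it was 0.14 in control and 0.01 in IL-4 cultures (-0.07 and 0.03 over all). By 1 probe set a gene the medians were -0.6, -0.41, 0.11 and -0.25. The shift was not tested. RSG lowered 1 of 23 probe sets in WT control, KO control and KO IL-4 cultures (0.0711%, 0.0622% and 0.391% of all probe sets fell). In these limma gave 9, 3 and 2 at an unadjusted p under 0.05, and the methods' t-test called 0. In WT IL-4 cultures 0 were called (0.688% of all), where limma gave 8 and the methods' t-test 8 at an unadjusted p under 0.05 and the t-test called 0. The member that fell was Mmp12 without IL-4 and Mmp13 with IL-4 in KO, as the plot of RSG changes in each mouse shows. In WT control cultures the Mmp12 arrays went from -0.23, 0.01 and 0.73 to -2.01, -1.31 and -1.67. In KO control cultures they went from -0.56, -0.17 and -0.37 to -2.26, -2.58 and -2.86. No RSG array overlapped with its vehicle group. Mmp12 fell by 1.83 ± 0.24 in WT (3.57-fold, adjusted p = 0.00349) and by 2.20 ± 0.24 in KO (4.59-fold, adjusted p = 6.1e-04), in 3 of 3 mice of each genotype. The WT call was lost without mouse 1, 2 or 3, by the methods' t-test and with the compared groups alone (adjusted p from 0.00137 to 0.584 over 15 alternatives), and the KO call by the last 2 of these (7.9e-05 to 0.304).

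**Figure D4:**
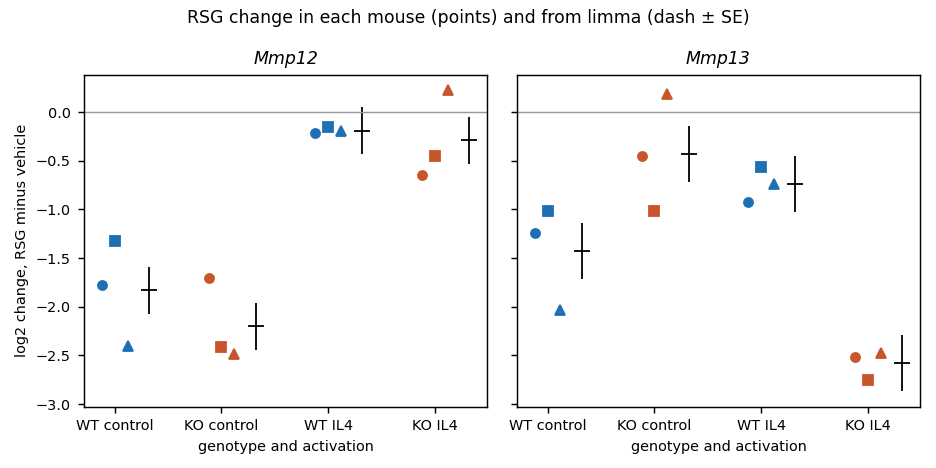
Log2 change with RSG (y axis) of Mmp12 and Mmp13 in each mouse, by genotype and activation (x axis); points are mice (blue WT, orange KO), and dashes with bars are the limma estimate ± SE. Mmp12 changes lie at or below -1.32 in every control culture and within -0.65 to 0.23 with IL-4, and Mmp13 changes in KO with IL-4 lie between -2.75 and -2.48.

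With IL-4 the RSG change of Mmp12 was -0.19 ± 0.24 in WT (adjusted p = 0.925) and -0.29 ± 0.24 in KO (adjusted p = 0.831). The WT arrays held 1.30, 1.36 and 1.33 with IL-4 and RSG, and the KO arrays -0.44, -0.01 and 0.30. The difference of the RSG change between IL-4 and control cultures was 1.65 ± 0.34 in WT (adjusted p = 0.121, interval 0.94 to 2.36) and 1.91 ± 0.34 in KO (adjusted p = 0.0406). For this difference 0 of 23 probe sets were called in WT (0.0289% of all), with 1 at an unadjusted p under 0.05 and 0 by the methods' t-test, and 1 was called in KO (0.0711% of all). The KO call was lost under 11 of 15 alternatives (adjusted p from 0.0151 to 0.506), among them each omission of a mouse and the replicate block.

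Mmp13 showed its clearest RSG change in KO cells with IL-4. There the vehicle arrays held 2.31, 2.91 and 2.79 and the RSG arrays -0.20, 0.16 and 0.30, without overlap. Mmp13 fell by 2.58 ± 0.29 (6.00-fold, adjusted p = 1.4e-04), by 2.48 to 2.75 in each of the 3 mice. In WT with IL-4 the arrays went from 4.04, 3.96 and 4.37 to 3.12, 3.39 and 3.63, a change of -0.74 ± 0.29 that was not called (adjusted p = 0.421). The genotype difference in the RSG response with IL-4, 1.84 ± 0.42, was not called over all probe sets (adjusted p = 0.0764), and 0 of 23 probe sets were (0.362% of all), with 5 at an unadjusted p under 0.05 and 0 by the methods' t-test. With a replicate block for the mouse it was called at an adjusted p of 0.0279, and over the 15 alternatives its adjusted p ran from 0.0179 to 0.328. In control cultures the change was -1.43 ± 0.29 in WT (adjusted p = 0.0747) and -0.43 ± 0.29 in KO (adjusted p = 0.779). The WT value was called with the replicate block (adjusted p = 0.0298) and under 2 other of the 15 alternatives (0.0256 to 0.704 over all of them). The call of Mmp13 in KO with IL-4 was lost by the methods' t-test and with the compared groups alone (adjusted p from 2.4e-05 to 0.198).

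No other member was called for RSG in any of the 4 conditions. Timp1 had the largest values, from -0.83, -0.69 and 0.30 to 1.91, 2.20 and 5.80 in KO control cultures, a change of 3.71 ± 0.96 (adjusted p = 0.194) in which 3 of 3 mice were higher, by 2.74 to 5.50. In WT control cultures Timp1 went from 1.83, 4.63 and 0.07 to -0.97, 0.92 and -1.06, a change of -2.55 ± 0.96 (adjusted p = 0.503) in which 3 of 3 mice were lower. These comparisons hold the 2 arrays with high stromal markers, and neither change was called under any of the 15 alternatives. Mmp9 held 1.49, 0.37 and 1.28 in WT IL-4 vehicle and -0.49, -0.68 and -0.28 with RSG, a change of -1.53 ± 0.61 in 3 of 3 mice that was not called (adjusted p = 0.425). Its second probe set changed by -2.03 ± 0.57 (adjusted p = 0.153) and was called without the 2 arrays with high stromal markers. Timp2 changed by -0.79 ± 0.28 in WT control (adjusted p = 0.444) and by -0.56 ± 0.28 in WT IL-4 (adjusted p = 0.594), lower in 3 of 3 mice each. In KO IL-4 cultures Timp2 changed by 0.02 ± 0.28, Mmp8 by -0.29 ± 0.21 and Mmp14 by -0.28 ± 0.47, and none of these was called.

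Other genes of the matrix-degrading system were taken from lists, counted by 1 probe set a gene. Over all genes 7.56% rose and 6.48% fell with IL-4 in WT vehicle cultures, and 5.18% rose and 8.18% fell in KO. Of 11 measured MMPs outside the members limma called 0 with IL-4 in either genotype, with 1 in each at an unadjusted p under 0.05 and 0 by the methods' t-test. On chromosome 9 lie 10 consecutive Mmp genes, of which 9 were measured. Among these, Mmp13 and Mmp12 rose in WT and Mmp13 and Mmp8 in KO, and Mmp1b, Mmp3, Mmp1a, Mmp10, Mmp20 and Mmp7, which lie between or beyond them, were not called, with SEs of 0.58 to 1.35. In WT the changes of the uncalled genes were, in this order, -1.44, -0.72, -0.65, 1.34, 1.62 and 0.83. Those of Mmp10 and Mmp20 were no smaller than the 1.34 of Mmp12. Of 15 cathepsins and cystatins 3 rose and 1 fell in WT, among them the bone-resorbing Ctsk by 4.89 ± 0.39 and Ctsl by 3.03 ± 0.17. In KO 2 rose and 1 fell, with the cystatin Cst7 at 3.44 ± 0.18. Of 17 ADAM and ADAMTS proteases 2 rose and 2 fell in WT, among them Adam8 at 1.63 ± 0.15, and 0 rose and 1 fell in KO. In the plasminogen system the urokinase receptor Plaur rose by 0.64 ± 0.17 in WT, 1 of 8 measured genes, and 3 of 8 rose in KO, with Serpinb2 at 6.00 ± 1.22. Of 6 other MMP inhibitors Tfpi2 rose by 2.94 ± 0.72 in WT, and limma called 0 in KO, with 2 at an unadjusted p under 0.05 and 0 by the methods' t-test. Of 21 matrix substrates 1 rose and 4 fell in WT, with fibronectin Fn1 at 3.12 ± 0.82 and the collagen Col1a2, also a stromal marker, at -5.53 ± 1.52, and 3 rose and 2 fell in KO. Of 13 genes for MMP activation, anchoring and clearance 3 rose and 2 fell in WT and 2 rose in KO, with Lcn2, which binds MMP9 and is also a neutrophil marker, at -5.98 ± 0.45 in WT and 2.71 ± 0.45 in KO. Of 13 AP-1, NF-kB and Ets regulators 4 rose and 3 fell in WT, with Jun at 1.64 ± 0.17 and Relb at -1.44 ± 0.15, and 3 rose in KO, with Ets1 at 3.58 ± 0.36.

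The genes most like each member over the 24 arrays were found by Pearson's r, given as a description, since the arrays share groups and mice. Mmp13 was closest to the chemokine Ccl24 (r = 0.963), Pfkp (0.962) and the arginase Arg1 (0.959). Ccl24 rose with IL-4 by 4.91 ± 0.66 in WT and 3.51 ± 0.66 in KO. Mmp19 was closest to the coagulation factor F7 (0.966) and the transcription factor Egr2 (0.965), which changed by 0.10 ± 0.21 in KO. Mmp14 was closest to the matrix protein Tgfbi (0.951) and the signalling inhibitor Socs3 (0.905), and Tgfbi fell by 1.95 ± 0.22 in WT and rose by 0.97 ± 0.22 in KO. Mmp8 was closest to Satb1 (0.965), Mmp12 to the heme synthesis enzyme Alas1 (0.943), Mmp9 to Tjp1 (0.885) and Ets1 (0.869), Timp2 to Wtip (0.950) and Mmp2 to Pard6g (0.823). Timp1 was closest to the BMP antagonist Grem1 (0.920), Ltbp2 (0.887) and the collagen chaperone Serpinh1 (0.881). Timp3 had no gene above 0.745.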

How the data were processed

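RNA of 24 bone marrow-derived macrophage cultures, 1 array each, was measured on Affymetrix oligonucleotide arrays of the mouse genome. The authors summarised the scans by GC-RMA in GeneSpring, brought the arrays to a common median, related every probe set to its own median over the arrays, and deposited linear ratios. A further division by the vehicle control named in the methods is not found in the deposited ratios. GCOS and GCRMA are listed in the submitters' processing notes. The median ratio was 1 within 0.001 for 38889 probe sets (86.3%), 22 of the 23 members among them, and the sources used here give no reason for the rest. No member value was at the lowest ratio of the table, 0.01. A ratio keeps no signal over background, and the precision, limited by 3 arrays per group, differed between probe sets (SE of 0.16 to 1.29 for the members' IL-4 changes).

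Ratios were taken to log2. The table held 45101 probe sets, and 45037 were tested after removal of 64 controls. Of these, 34945 had 1 gene symbol, 932 several and 9160 none. Where 1 probe set stands for a gene (its first), the plainest Affymetrix suffix and then the lowest identifier decided. limma 3.58.1 in R 4.3.3 (lmFit, eBayes without a variance trend, since a mean ratio is no level) was fitted to the 8 groups together (24 arrays; degrees of freedom 16 residual, 1.35 prior), with two-sided p-values adjusted by Benjamini-Hochberg over all probe sets, in 17 comparisons. The fit was tested on simulated data. Labels gave groups and mouse numbers. The 4 arrays with a number came from the same mouse, which pairs them; their deviations correlated by 0.011 on average (-0.023 to 0.046 over 36 pairs, 0 above 0.1). No 2 arrays held identical values. Named were all members, up to 4 called genes of a list and the 3 genes most like a member, of which some are given. Members, lists and rules were chosen with earlier results of these data known. Promoters came from a RefSeq table of GRCm38.p6, which was matched for 7 of 10 genes, and gene order from a RefSeq gene table. Alternatives were a replicate block for the mouse, the methods' t-test (equal variance, on the log2 ratios), limma on the compared groups alone, quantile normalization, centring of arrays, a variance trend, probe sets with a median of 1, and leaving out each mouse or the arrays that stood apart. The genotype difference in the IL-4 response under RSG and the IL-4 difference in the RSG response of KO cells were added after seeing the data.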

Additional observations from a re-analysis of the deposited data

Results flagged for a closer look

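A difference between responses passed the test for 7 genes, all on the log2 scale with 3 arrays per group and limma's adjusted p over all probe sets. The WT minus KO difference of the IL-4 response with vehicle was -3.83, -3.94 and -3.62 for the 3 Mmp14 probe sets, 1.88 and 1.94 for Mmp19, -1.67 for Mmp8, and 2.05, 1.81, 1.83, 1.87 and 1.62 for 5 Timp2 probe sets. With RSG present it was 3.30 for Mmp13, -3.01, -3.95 and -3.72 for Mmp14, 1.83 and 1.99 for Mmp19, -1.64 for Mmp8, 2.16, 1.31, 1.22, 1.5 and 1.22 for Timp2, and 4.63 for Timp1. Under RSG the call was lost for Mmp14 at -3.01 by the methods' t-test and without mouse 5, for Mmp19 at 1.83 without mouse 4, for Timp2 at 1.31 by the t-test and with the compared groups alone, and for 1 of the Timp2 probe sets at 1.22 under 5 of 15 alternatives. The Timp1 difference (adjusted p = 0.0330) was lost under 7 of 15 alternatives. For Mmp12 the RSG change differed by 1.91 between IL-4 and control cultures of KO mice (adjusted p = 0.0406), which was lost under 11 of 15 alternatives.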

How the results depend on the processing

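Of 101 called results of single probe sets, 64 were kept under all 15 alternatives, 76 when the methods' t-test and the fits of the compared groups alone were set aside, and none changed direction with the same probe set. Among those kept in all were Mmp13 with IL-4 in both genotypes with vehicle, Mmp8 in KO and the genotype difference of Mmp14 with vehicle. Another probe set of Timp2 changed direction for IL-4 in KO with RSG (1.01 ± 1.29, adjusted p = 0.737); the cause was not tested. The methods' t-test, which has fewer degrees of freedom, called 5 member probe sets in place of 10 for IL-4 in WT with vehicle and 1 in place of 10 for IL-4 in KO with RSG, where the compared groups alone gave 2; both gave 0 in place of 1 for RSG in WT control, KO control and KO IL-4 and for the IL-4 difference in the RSG response of KO. Counts over omissions of 1 mouse were 7 to 12 for IL-4 in KO with vehicle, 5 to 10 with RSG, 0 to 1 for RSG in WT control, 0 to 1 for KO against WT in control RSG and 0 to 1 for the IL-4 difference in KO. With the paired fit (replicate block) 2 were called for RSG in WT control and 1 for the genotype difference in the RSG response with IL-4, and the block moved no other count by over 1.5 times. The replicate block ended the calls of Mmp2 for IL-4 in WT with vehicle (adjusted p = 0.0635) and in KO with RSG (0.0858) and of Mmp12 for the IL-4 difference in KO (0.0835), and made calls of Mmp14 for IL-4 in KO with vehicle (0.0255) and with RSG (0.0148) and of Mmp13 for the IL-4 difference in KO (0.0328), RSG in WT control and the genotype difference in the RSG response. Quantile normalization gave 2 for RSG in WT control and 0 for the IL-4 difference in KO, where centring of arrays gave 2. Without the 2 arrays with high stromal markers the counts were 2 for RSG in WT control, 1 for RSG in WT IL-4, 1 for the genotype difference in the RSG response with IL-4 and 0 for the IL-4 difference in KO. Without WT control vehicle mouse 3 the last 2 were 1 and 2. Signal over background is unknown in ratios, so that an uncalled dim probe set says little.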
